A study of Mus musculus with 18 samples.

Results

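*Atxn2* encodes ataxin-2, the cytoplasmic RNA-binding protein whose expanded polyglutamine tract causes spinocerebellar ataxia type SCA2. Its gene was followed here together with 9 partners and stress granule genes, namely *Atxn2l*, *Pabpc1*, *Pabpc4*, *Lsm12*, *Ddx6*, *G3bp1*, *G3bp2*, *Tia1* and *Tardbp*. All transcripts carrying 1 of these 10 symbols in the count table were summed per gene, which gave 10 of 35960 genes and 122 of 116873 transcripts. RNA came from the brains of WT mice and of homozygous *Atxn2*-CAG100-KIN littermates on a C57BL/6 background at the age of 10 months. The study describes same-sex pairs of mutant and WT mice, of which 1 pair was female and the others male. The labels give neither the sex nor the pair of a library. In the KIN mice a long CAG repeat stands in the endogenous *Atxn2* gene, so every cell that expresses *Atxn2* carries it. Microglia were taken with CD11b beads, then astrocytes with ACSA-2 beads, and the unlabelled remainder after removal of other non-neuronal and CD31-positive cells was the neuronal fraction. The 18 libraries were 3 per fraction and genotype, with no treatment, and all 3 fractions were isolated in sequence from the same brain, so fractions of a brain are not independent.

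Ataxin-2 binds RNA through its Lsm domain, and binds the cytoplasmic poly(A)-binding protein through a short PAM2 motif. Poly(A)-binding protein covers the poly(A) tail and links it to translation initiation and deadenylation. Under stress, when initiation stalls, mRNPs with ataxin-2, poly(A)-binding protein, G3BP and TIA1 gather in stress granules, while DDX6 is a helicase of processing bodies. TDP-43, the product of *Tardbp*, is the RNA-binding protein that aggregates in motor neuron disease, and ataxin-2 is known as a modifier of its toxicity.

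The sites that define the mutation and the partnership are shown first. The first lies where the human gene has its CAG tract, in exon 1 of *Atxn2-201* on the plus strand of mm39 at chr5:121850137-121850184. Capitals mark the codons for Gln, Pro and Gln that follow Leu-Lys-Pro. Which of these Gln codons was replaced in the KIN allele is not marked in the data.
Atxn2 repeat site: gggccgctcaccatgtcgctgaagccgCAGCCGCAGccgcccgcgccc
The WT mouse gene thus has single CAG codons where the KIN allele has a long uninterrupted tract. These bases lie in 2 of the 20 listed transcripts, which held 74 of the 354 *Atxn2* counts. The PAM2 core, given in capitals, lies in exon 16 of *Atxn2-201* at chr5:121934452-121934481 on the plus strand, and in exon 15 of *Atxn2l-203* at chr7:126094396-126094425 on the minus strand.
Atxn2 PAM2 core: acaTTGAATCCCAATGCAAAGGAGTTCaac
Atxn2l PAM2 core: actTTGAACCCCAACGCCAAGGAGTTCaat
Of the 24 core bases, 21 were identical between both genes. The core lies in 3 *Atxn2* transcripts with 84 of 354 counts, and in 4 *Atxn2l* transcripts with 443 of 459 counts. All 3 sequences were read from the GENCODE transcripts of GRCm39, the assembly also named mm39.

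Total counts ran from 761481 to 3296398 per library, and the 10 most abundant genes held 75.8 to 85.4% of them. In the neuronal fraction the WT libraries had 761481 to 1017972 counts and the KIN libraries 1473194 to 2017932, so depth and genotype cannot be told apart there. The 5 astrocyte markers fixed for this work were all highest in the astrocyte fraction and the 5 microglia markers all in the microglia fraction, by mean CPM (counts per 1000000 of the scaled library). Of 12 neuronal markers only *Tubb3*, *Gad1* and *Map1b* were highest in the neuronal fraction, and the other 9, among them *Snap25* and *Slc17a7*, were highest in astrocytes. Summed neuronal markers in astrocytes were at 54.5 to 200.2 CPM in WT and 40.4 to 53.2 CPM in KIN, and in microglia at 26.7 to 105.1 CPM in WT and 14.3 to 19.0 CPM in KIN. The KIN libraries lay below all WT libraries in both glial fractions, with 10 of the 12 markers called lower in astrocytes and 7 in microglia. *Tubb3* went the other way in astrocytes, at 5.52 to 10.01 CPM in WT and 10.07 to 21.04 CPM in KIN, and was not called. Astrocyte markers in the astrocyte fraction summed to 337.7 to 512.5 CPM in WT and 231.8 to 246.8 CPM in KIN, with *Fgfr3* called lower among 5. Of the same list, *Gfap* went the other way, at 6.885 to 15.25 CPM in WT and 16.07 to 18.7 CPM in KIN, and was not called. Oligodendrocyte markers in astrocytes overlapped in sum, at 227.3 to 362.5 and 320.3 to 338.2 CPM, but *Mog* was called higher among 4, at 10.6 to 14.3 CPM in WT and 27.6 to 31.7 CPM in KIN. In microglia, oligodendrocyte markers summed to 17.8 to 21.1 CPM in WT and 7.93 to 10.7 CPM in KIN with 0 of 2 tested called. The astrocyte marker *Aldoc* was called lower there (-3.22, adjusted *p* = 0.012 in edgeR). So was the endothelial marker *Cldn5*, 1 of 3 tested, at 5.09 to 7.92 CPM in WT and 0.793 to 2.15 CPM in KIN. *Pecam1* of the same list went the other way, at 25.85 to 39.1 CPM in WT and 41.75 to 45.19 CPM in KIN. These groups did not overlap, but *Pecam1* was not called. The 5 endothelial and pericyte markers overlapped in sum, at 38.14 to 49.99 CPM in WT and 46.62 to 50.74 CPM in KIN. Microglia markers in microglia overlapped between genotypes, at 371.3 to 643.9 and 406.4 to 478 CPM. The neuronal library of WT replicate 2 stood apart, with *Mbp*, a myelin gene of oligodendrocytes, at 218.2 CPM against 3.24 to 8.64 CPM in the other 5. The microglia library of WT replicate 2 stood apart as well, with summed microglia markers at 643.9 CPM against 371.3 and 372.1 CPM in the other WT libraries and neuronal markers at 26.7 CPM against 105.1 and 97.9 CPM. Without it 452 genes were called in microglia instead of 165. The astrocyte library of WT replicate 2 also differed from the other WT libraries. Its astrocyte markers summed to 512.5 CPM against 337.7 and 346.8 CPM, and its neuronal markers to 54.5 CPM against 200.2 and 163.4 CPM. Without that library 1528 genes were called in astrocytes instead of 1040. In bulk fractions, fewer cells of a type and less RNA per cell cannot be told apart.

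*Atxn2* itself (ENSMUSG00000042605, chr5:121849400-121954556, plus strand) was detected in all 18 libraries at 3 to 41 counts. In astrocytes it was at 11.3, 11.0 and 10.3 CPM in WT and at 10.7, 9.72 and 7.27 CPM in KIN. In microglia it was at 12.2, 6.93 and 10.6 CPM in WT and at 8.32, 6.09 and 6.26 CPM in KIN. Genotypes overlapped in both glial fractions. In microglia the overlap came from WT replicate 2 alone, and without it the log2 fold change was -0.75 (adjusted *p* = 0.131), still not called. In neurons *Atxn2* was at 3.24, 10.2 and 5.32 CPM in WT and at 5.32, 8.09 and 5.77 CPM in KIN, and there the WT libraries spanned the KIN values. In edgeR's quasi-likelihood test the log2 fold change of KIN against WT was -0.25 in astrocytes (95% interval -0.78 to 0.29, adjusted *p* = 0.63), -0.56 in microglia (-1.16 to 0.04, adjusted *p* = 0.471) and -0.21 in neurons (-1.30 to 0.88, adjusted *p* = 0.984). Over all fractions with fraction as covariate, the compound comparison, it was -0.32 (SE 0.206, adjusted *p* = 0.486). That fit has no term for the brain. Its *p*-values and intervals thus count the fractions of a brain as independent, and compound *p*-values may be too low. The intervals exclude a doubling or a halving in astrocytes and in the compound comparison, but not a halving in microglia or neurons. The counts do not span the repeat in a way that measures its length, so the level of *Atxn2* does not check the genotype labels.

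**Figure D1:**
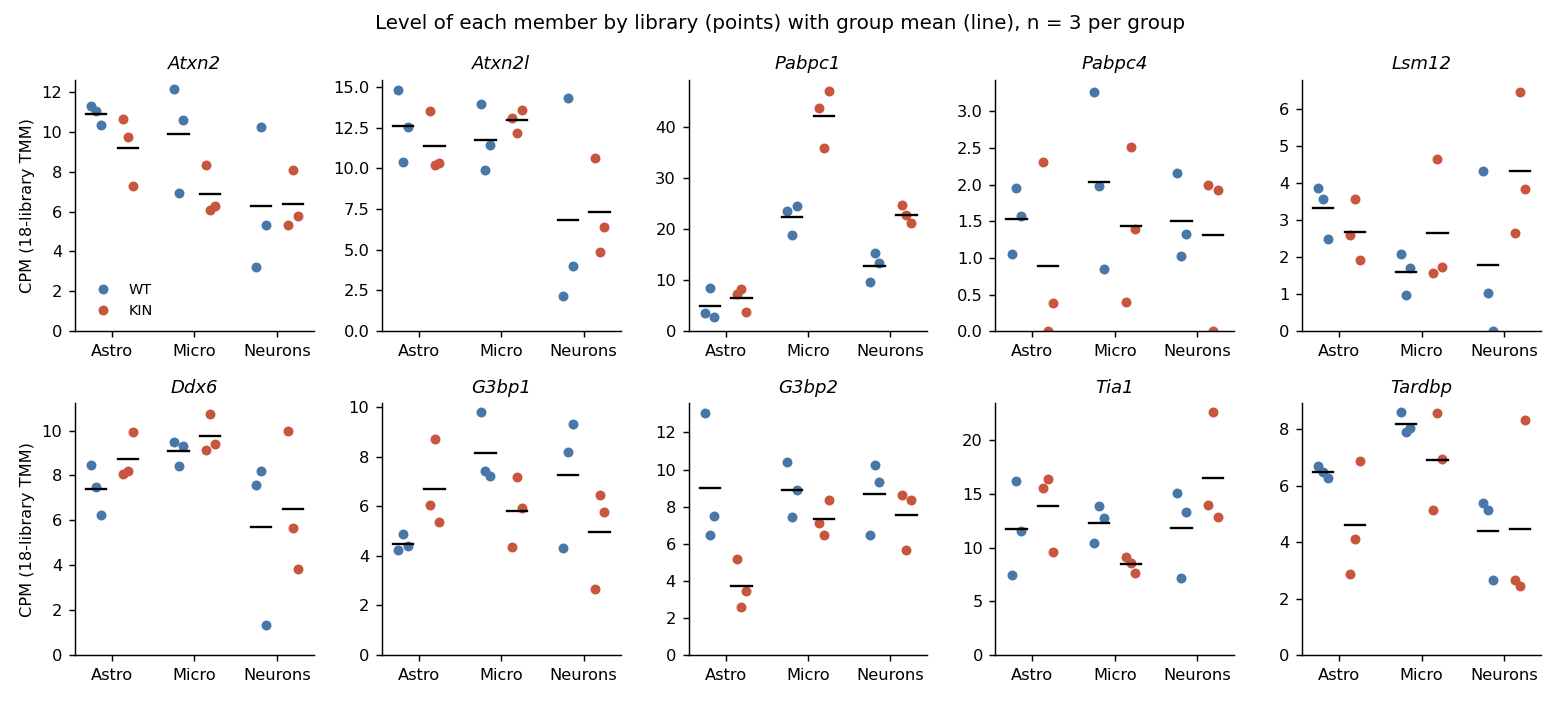
Level of the 10 genes in CPM (TMM scale of all 18 libraries) in astrocytes, microglia and neurons. Points are the 3 libraries of a group, blue for WT and red for KIN, and black lines are group means. The genotypes are apart without overlap for *G3bp2* and *G3bp1* in astrocytes, for *Pabpc1*, *G3bp1* and *Tia1* in microglia, and for *Pabpc1* in neurons.

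By transcript, *Atxn2* counts lay largely on annotated models that do not encode the full protein. *Atxn2-217*, a single-exon retained-intron model of 6946 bases at chr5:121940174-121947119, held 125 of 354 counts or 35.3%, although only 4.9% of its bases fall in exons of *Atxn2-201*. *Atxn2-201*, the protein-coding model of 25 exons and 4472 bases, held 50 counts or 14.1%. *Atxn2-216*, a model of 461 bases without a defined coding sequence, held 42 counts or 11.9%. These 3 passed a filter of 5 reads in 2 or more libraries, and the other 17 had at most 24 counts each and 137 in all. Retained-intron models together took 177 of the 354 counts (Wilson 95% interval 44.8 to 55.2%) and protein-coding models 131, or 37.0% (32.1 to 42.1%). Such shares depend on which models are annotated, and for *Atxn2l* all 6 listed models are protein coding, so its counts have no other type to fall on. Intervals of this kind cover counting error only, and within a reference the alignment chose 1 transcript for a read that several share. The study's supplement lists a noncoding Ensembl reference before the last one. If reads were mapped in that order, a read shared with a noncoding model would go to that model first. Which reference held each model was not checked, so the shares by type may depend on it.

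The retained-intron part of *Atxn2* was close to that overall in each fraction, with 86 of 174 counts in astrocytes, 68 of 136 in microglia and 23 of 44 in neurons. Between genotypes, *Atxn2-217* held 66 of the WT counts (33.7%) and 59 of the KIN counts (37.3%), while *Atxn2-201* held 33 (16.8%) and 17 (10.8%). The direction for *Atxn2-217* was not the same in every fraction, with 35.4% in WT and 28.0% in KIN astrocytes, 32.5% and 46.4% in microglia, and 29.4% and 44.4% in neurons, and the difference between fractions was not tested. In microglia, *Atxn2-201* had 8, 1 and 5 counts in WT and 2, 1 and 1 in KIN, which overlap, and its log2 fold change of -1.82 (95% interval -3.73 to 0.09) had an adjusted *p* of 0.494 in edgeR. In astrocytes it had 4, 11 and 2 counts against 5, 0 and 3, with a log2 fold change of -0.95 (SE 0.683, adjusted *p* = 0.42). *Atxn2-217* was at -0.60 in astrocytes (adjusted *p* = 0.421) and at -0.14 in microglia (adjusted *p* = 0.981), and *Atxn2-216* at -0.72 in microglia (adjusted *p* = 0.801). None of the *Atxn2* transcripts was called by edgeR or by DESeq2 in any fraction, none reached an unadjusted *p* of 0.05, and in neurons none passed the filter on low counts. A feature was called when its adjusted *p* was 0.05 or lower and its log2 fold change 1 or more in either direction, which 8.36% of all transcripts tested met in astrocytes, 0.920% in microglia and 0.0181% in neurons.

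**Figure D2:**
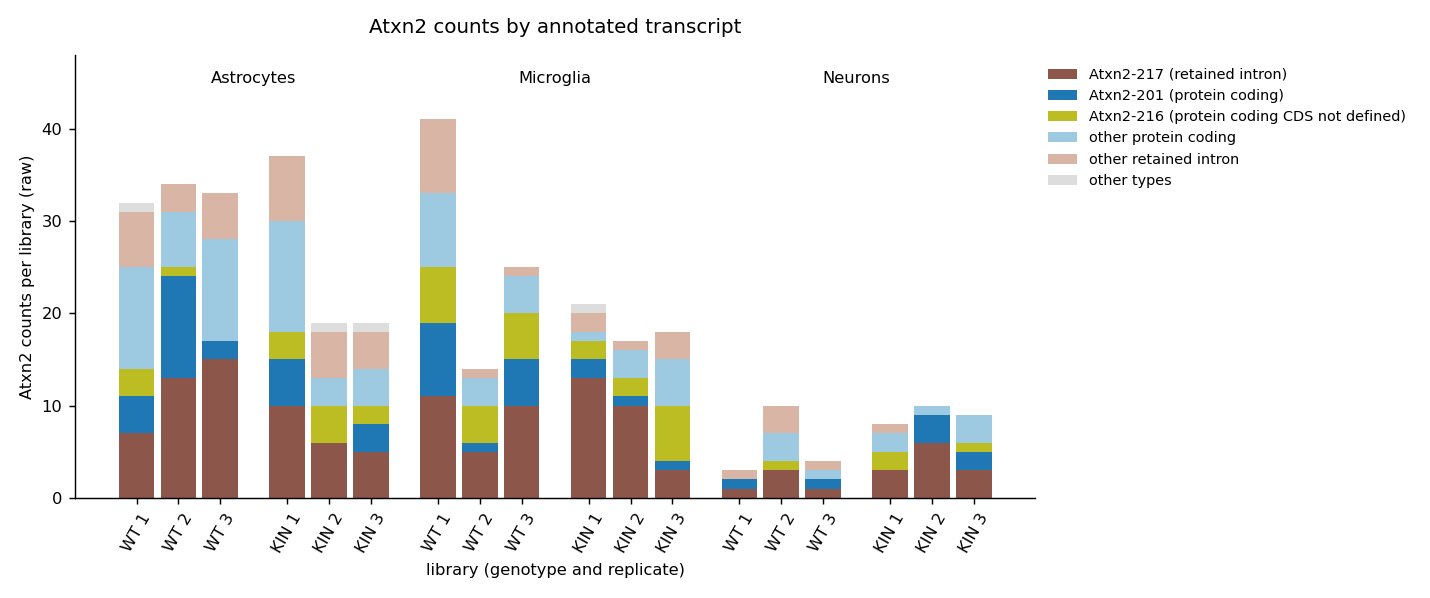
Raw *Atxn2* counts of each library, stacked by annotated transcript: the 3 transcripts that passed the filter, then all other protein-coding, retained-intron and remaining models. Bars are ordered by fraction, genotype and replicate. The brown retained-intron model *Atxn2-217* is in all 18 libraries, and the neuronal libraries hold 3 to 10 counts each.

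*Atxn2l* (ENSMUSG00000032637, chr7:126090878-126102927, minus strand) is the paralog of *Atxn2* with the same domain order. In microglia it was at 14.0, 9.90 and 11.4 CPM in WT and at 13.1, 12.2 and 13.6 CPM in KIN, with a log2 fold change of 0.12 (95% interval -0.40 to 0.64, adjusted *p* = 0.946). In astrocytes the fold change was -0.13 (-0.64 to 0.37, adjusted *p* = 0.802) and in neurons -0.14 (-1.26 to 0.99, adjusted *p* = 0.992). The level of *Atxn2l* thus gave no call in any fraction, and its intervals in both glial fractions exclude a doubling and a halving. Within a library, the ratio of *Atxn2* to *Atxn2l* counts needs no scaling between libraries. In microglia this ratio was 0.833 ± 0.118 in WT (SD, n = 3, from 0.700 to 0.926) and 0.533 ± 0.0919 in KIN (from 0.462 to 0.636), so the genotypes did not overlap. Of single genes tested in microglia 16.0% were without overlap, and such a share was not computed for ratios. An exact test over 3 against 3 libraries could not give a *p* below 0.1, and none was run. In astrocytes the ratio was 0.883 ± 0.159 in WT and 0.814 ± 0.125 in KIN, and in neurons 1.18 ± 0.414 and 1.02 ± 0.593, with overlap in both. The neuronal ratios rest on 3 to 10 *Atxn2* counts and 2 to 16 *Atxn2l* counts per library.

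*Pabpc1* (ENSMUSG00000022283, chr15:36595902-36609912, minus strand), the main cytoplasmic poly(A)-binding protein, differed most between fractions. It was at 2.82 to 8.44 CPM in the 6 astrocyte libraries, at 9.72 to 24.6 CPM in neurons and at 18.8 to 47.0 CPM in microglia. The astrocyte libraries lay below all others, while the neuronal and microglial ranges met. In the fit of 6 group means over 18 libraries, *Pabpc1* was lower in astrocytes than in microglia by a log2 fold change of -2.45 (SE 0.216, adjusted *p* = 3.31e-19), a level 0.184 times that of microglia. It was higher in neurons than in astrocytes by 1.60 (SE 0.262, adjusted *p* = 1.67e-07), or 3.03 times. Between neurons and microglia the log2 fold change was -0.84 (95% interval -1.28 to -0.41, adjusted *p* = 0.00102), past the adjusted *p* but not the fold limit. It was the single member called of 10 between astrocytes and microglia, where 33.2% of all genes were called, and of 10 between neurons and astrocytes, where 30.8% were.

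*Pabpc1* also separated the genotypes. In microglia it was at 23.5, 18.8 and 24.6 CPM in WT and at 43.6, 35.8 and 47.0 CPM in KIN, from 79, 38 and 58 counts against 110, 100 and 135. All KIN microglia lay above all WT microglia. The log2 fold change was 0.91 (SE 0.234, 95% interval 0.43 to 1.40, adjusted *p* = 0.043 in edgeR), a 1.88-fold level that stayed under the fold limit. The fold change stayed between 0.80 and 1.03 with any 1 library left out, but the adjusted *p* was 0.21 without WT replicate 1, 0.136 without WT replicate 3, 0.155, 0.102 and 0.219 without KIN replicates 1, 2 and 3, and 0.0209 without WT replicate 2. With the replicate number as a block the fold change was 0.92 and the adjusted *p* 0.0616. Each of the 5 omissions that ended the pass also cut the calls over all genes from 165 to between 35 and 48. In neurons it was at 9.72, 15.4 and 13.3 CPM in WT and at 24.6, 22.7 and 21.1 CPM in KIN, also without overlap, but with a log2 fold change of 0.62 (SE 0.333, adjusted *p* = 0.97). In astrocytes WT libraries at 3.53, 8.44 and 2.82 CPM overlapped KIN libraries at 7.19, 8.19 and 3.83 CPM, and the log2 fold change was 0.34 (SE 0.354, adjusted *p* = 0.611). The compound fold change was 0.75 (SE 0.195, adjusted *p* = 0.0152, and 0.0575 without WT replicate 3 of the astrocytes), and the interaction test made no call for a difference between fractions, with microglia minus astrocytes at 0.55 (95% interval -0.34 to 1.45, adjusted *p* = 0.715). By the adjusted *p* alone, *Pabpc1* was 1 of 10 members in microglia, where 1.63% of all genes passed, and 1 of 10 in the compound comparison, where 3.34% did. In the same microglia libraries the neuronal markers summed to 105.1, 26.7 and 97.9 CPM in WT and to 15.1, 19.0 and 14.3 CPM in KIN, and their part in the *Pabpc1* value was not tested.

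By transcript type, a split chosen after the values were seen, the genotypes separated in the protein-coding part of *Pabpc1* in microglia and neurons but not in astrocytes. On protein-coding models, microglia had 16.9, 11.9 and 15.7 CPM in WT and 35.7, 28.3 and 35.1 CPM in KIN, and neurons had 5.4, 9.22 and 7.98 CPM in WT and 19.3, 15.4 and 15.4 CPM in KIN. Neither pair of groups overlapped, where 16.0% of whole genes tested in microglia and 13.9% in neurons were without overlap. Astrocytes did overlap on these models, at 1.88 to 4.87 CPM in WT and 2.68 to 5.12 CPM in KIN. On retained-intron models, of which *Pabpc1-203* passed the filter, microglia had 5.94, 5.94 and 8.48 CPM in WT and 7.93, 7.16 and 11.8 CPM in KIN, and neurons had 4.32, 6.15 and 5.32 CPM in WT and 4.65, 6.47 and 5.13 CPM in KIN. Both pairs overlapped. In the transcript fits of edgeR, the coding *Pabpc1-201* was at 1.02 in microglia (SE 0.275, adjusted *p* = 0.0602) and at 0.96 in neurons (SE 0.403, adjusted *p* = 0.855), and *Pabpc1-203* was at 0.22 (SE 0.36, adjusted *p* = 0.935) and -1.03 (SE 0.639, adjusted *p* = 0.96). The difference between these models was not tested. Reads that *Pabpc1* shares with near-identical copies elsewhere in the genome could be split by the counting, so its level is uncertain to that degree.

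*Pabpc4* (ENSMUSG00000011257, chr4:123156144-123192720, plus strand), an inducible poly(A)-binding protein, was near the limit of detection at 0 to 11 counts per library. It had no counts in KIN replicate 2 of astrocytes and of neurons, where 3 counts would be 1.54 and 2.43 CPM, and it failed the filter in neurons. Its KIN effect was -0.50 in astrocytes (SE 0.747, adjusted *p* = 0.745) and -0.54 in microglia (SE 0.641, adjusted *p* = 0.854). The intervals, -1.995 to 0.9989 in astrocytes and -1.86 to 0.78 in microglia, leave a halving of *Pabpc4* undetectable at this depth.

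**Figure D3:**
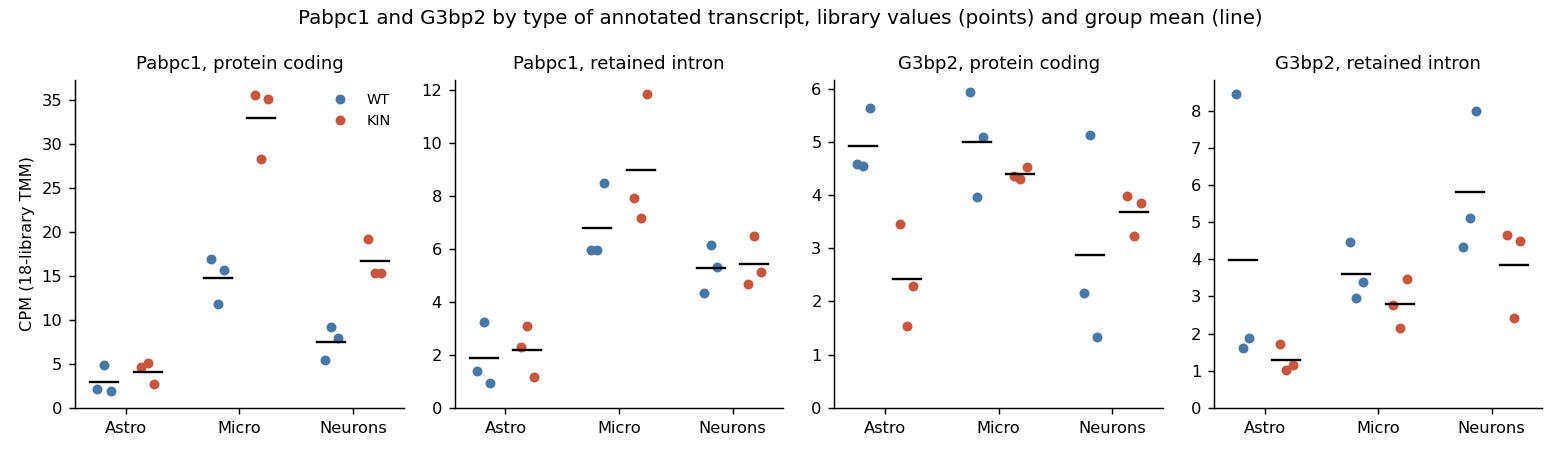
Level in CPM of *Pabpc1* and *G3bp2* on protein-coding and on retained-intron models, by fraction. Points are libraries, blue for WT and red for KIN, and black lines are means of 3. The protein-coding part of *Pabpc1* in microglia is at 11.9 to 16.9 CPM in WT and 28.3 to 35.7 CPM in KIN, and the highest point of retained-intron *G3bp2* in astrocytes is WT replicate 1 at 8.46 CPM.

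*G3bp1* and *G3bp2* encode the scaffold proteins on which stress granules assemble. *G3bp2* (ENSMUSG00000029405, chr5:92199674-92231728, minus strand) was lower in KIN astrocytes, at 13.0, 6.49 and 7.51 CPM in WT and at 5.18, 2.56 and 3.44 CPM in KIN, from 37, 20 and 24 counts against 18, 5 and 9. All KIN libraries lay below all WT libraries. The log2 fold change was -1.19 (SE 0.337, 95% interval -1.87 to -0.52, adjusted *p* = 0.0129 in edgeR), a level 0.437 times that of WT. *G3bp2* was the single member called among 10 in astrocytes, where 8.85% of all genes were called. The call was lost with DESeq2 (-1.25, adjusted *p* = 0.0807), without WT replicate 1 (-0.86, adjusted *p* = 0.173), without KIN replicate 2 (-1.04, adjusted *p* = 0.0667) and without KIN replicate 3 (-1.11, adjusted *p* = 0.08), and it held without each of the other 3 libraries. In microglia the fold change was -0.30 (SE 0.28, adjusted *p* = 0.783), in neurons -0.39 (SE 0.452, adjusted *p* = 0.97) and compound -0.58 (SE 0.221, adjusted *p* = 0.145). The effect in microglia minus that in astrocytes was 0.87 (SE 0.487, adjusted *p* = 0.517).

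The WT replicate 1 value of *G3bp2* in astrocytes was set by *G3bp2-208*, a retained-intron model, with 23 of the 37 counts. On protein-coding models *G3bp2* was at 4.58, 4.54 and 5.63 CPM in WT astrocytes and at 3.45, 1.54 and 2.30 CPM in KIN, still without overlap. On retained-intron models it was at 8.46, 1.62 and 1.88 CPM in WT and at 1.73, 1.02 and 1.15 CPM in KIN, with overlap. In the transcript fit *G3bp2-208* was called lower, at -1.50 (SE 0.514, adjusted *p* = 0.0433 in edgeR), as the only one of 17 member transcripts tested in astrocytes, where 8.36% of all transcripts were called. Of the coding models, *G3bp2-201* was at -1.52 (SE 1.01, adjusted *p* = 0.372) and *G3bp2-203* at -0.01 (SE 0.68, adjusted *p* = 0.998). No member transcript was called by edgeR among 19 in microglia or among 8 in neurons. At an unadjusted *p* of at most 0.05 there were 2 and 1 of them, against 10.9% and 5.23% of all transcripts tested. The summed neuronal markers of the same astrocyte libraries were at 200.2, 54.5 and 163.4 CPM in WT and at 42.0, 40.4 and 53.2 CPM in KIN, and their part in the *G3bp2* value was not tested. The part of the astrocyte and oligodendrocyte markers given above was not tested either.

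*G3bp1* (ENSMUSG00000018583, chr11:55360166-55395670, plus strand) stood the other way in astrocytes. It was at 4.23, 4.87 and 4.38 CPM in WT astrocytes and at 6.04, 8.70 and 5.36 CPM in KIN, all KIN libraries being higher, with a log2 fold change of 0.52 (95% interval -0.14 to 1.17, adjusted *p* = 0.342). In microglia it was at 9.80, 7.42 and 7.21 CPM in WT and at 4.36, 7.16 and 5.91 CPM in KIN, all KIN libraries being lower, with -0.50 (95% interval -1.12 to 0.12, adjusted *p* = 0.57). Neither difference passed the test. In neurons *G3bp1* was at 4.32, 8.19 and 9.31 CPM in WT and at 2.66, 6.47 and 5.77 CPM in KIN, which overlap, with -0.75 (SE 0.553, adjusted *p* = 0.97). Libraries without overlap between genotypes were found for 2 of 10 members in astrocytes, 3 of 10 in microglia and 1 of 9 in neurons, against 27.9%, 16.0% and 13.9% of all genes tested, so such separation is common in these data. The difference of the *G3bp1* effects, microglia minus astrocytes, was -1.03 (SE 0.504, unadjusted *p* = 0.0427, adjusted *p* = 0.419).

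*Tia1* (ENSMUSG00000071337, chr6:86381127-86410387, plus strand), whose prion-like protein nucleates stress granules, was at 10.4, 13.9 and 12.7 CPM in WT microglia and at 9.12, 8.59 and 7.65 CPM in KIN. The groups did not overlap, but the log2 fold change of -0.52 (SE 0.266, adjusted *p* = 0.456) was not called. In astrocytes it was at 7.40 to 16.2 CPM in WT and 9.57 to 16.4 CPM in KIN, and in neurons at 7.17 to 15.1 and 12.8 to 22.7 CPM, with log2 fold changes of 0.21 (SE 0.265) and 0.26 (SE 0.389), neither past the test. *Tia1* had 71.7% of its counts on retained-intron models, which are the most frequent type among its 28 listed models. Its effect in neurons minus that in microglia was 0.99 (SE 0.489, unadjusted *p* = 0.0452, adjusted *p* = 0.498).

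*Tardbp* (ENSMUSG00000041459, chr4:148696839-148711490, minus strand) was at 6.70, 6.49 and 6.26 CPM in WT astrocytes and at 2.88, 4.09 and 6.89 CPM in KIN. The WT libraries were close to each other and the KIN libraries spread over both sides, with a log2 fold change of -0.53 (SE 0.337, adjusted *p* = 0.34). In microglia the fold change was -0.24 (SE 0.289, adjusted *p* = 0.856) and in neurons -0.17 (SE 0.651, adjusted *p* = 0.992). Models annotated as subject to nonsense-mediated decay took 26.2% of the *Tardbp* counts.

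*Ddx6* (ENSMUSG00000032097, chr9:44514963-44552028, plus strand), the helicase that couples deadenylation to translational repression and decapping, was at 8.41 to 10.7 CPM in the 6 microglia libraries, at 6.26 to 9.95 CPM in astrocytes and at 1.33 to 9.97 CPM in neurons. Its KIN effect was 0.23 in astrocytes (95% interval -0.35 to 0.80), 0.10 in microglia (-0.44 to 0.64) and -0.07 in neurons (-1.22 to 1.09), none called. *Lsm12* (ENSMUSG00000020922, chr11:102053323-102076142, minus strand), an Lsm-domain partner of ataxin-2, was at 0 to 13 counts per library. Its KIN effect was -0.34 in astrocytes (SE 0.433), 0.68 in microglia (SE 0.56) and 0.95 in neurons (SE 0.889), with adjusted *p* of 0.691, 0.748 and 0.97.

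**Figure D4:**
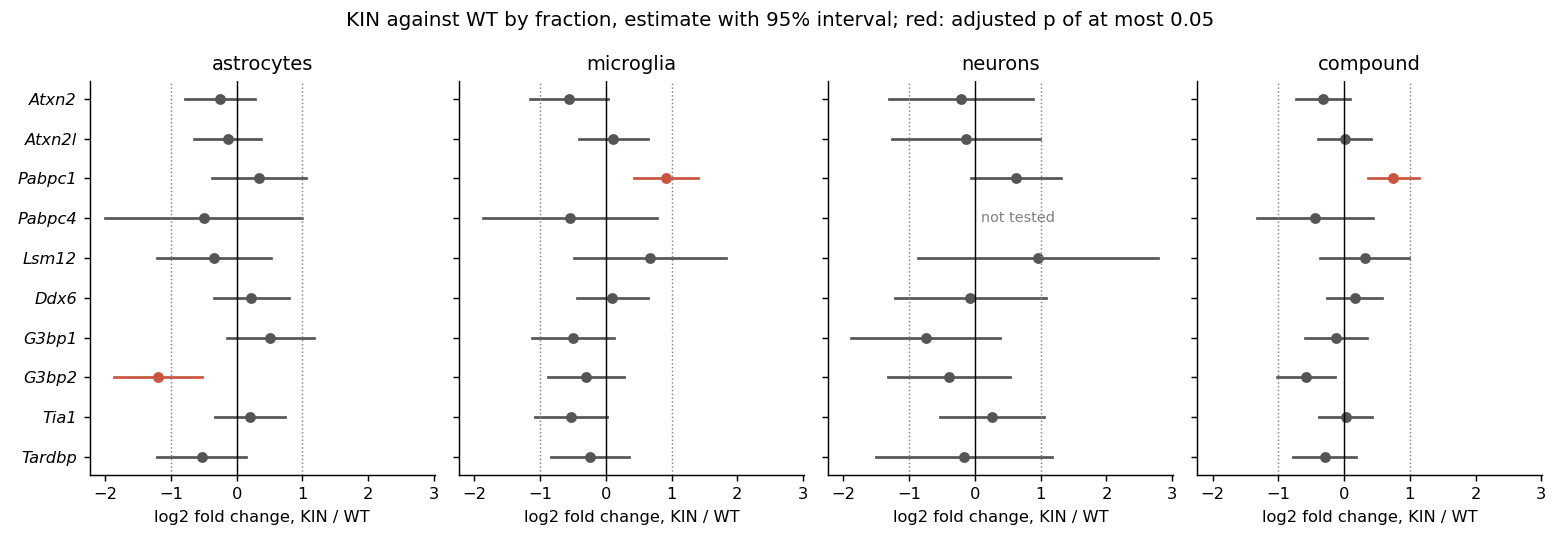
Log2 fold change of KIN against WT with its 95% interval for each gene in astrocytes, microglia, neurons and the compound comparison. Red marks an adjusted *p* of at most 0.05 and dotted lines the fold limit of 1 on the log2 scale. *G3bp2* in astrocytes at -1.19 is past both limits, and *Pabpc1* passes the adjusted *p* alone in microglia at 0.91 and in the compound comparison at 0.75.

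Over the list, 4 of 10 members had a positive log2 fold change in astrocytes and in microglia, 3 of 9 in neurons and 5 of 10 in the compound comparison. Their medians were -0.19, -0.27, -0.14 and -0.06, against -0.01, 0.00, 0.04 and 0.03 over all genes tested. No member was called by edgeR or DESeq2 in microglia, in neurons or in the compound comparison, where 1.52%, 0.0148% and 2.05% of all genes were. An unadjusted *p* of at most 0.05 was found in edgeR for 1 of 10 members in microglia, 0 of 9 in neurons and 2 of 10 in the compound comparison, where 12.0%, 5.04% and 15.6% of all genes were at that level. In astrocytes 1 of 10 members was at that level, against 24.9% of all genes. For differences of the KIN effect between fractions, no member was called by edgeR or DESeq2, while 0.819% of all genes were for microglia minus astrocytes, 0.760% for neurons minus astrocytes and 0.140% for neurons minus microglia. At the unadjusted level these contrasts had 1, 0 and 1 of 10 members, against 11.2%, 12.4% and 9.73% of all genes. In the last 2 of these contrasts the median over all genes was 0.29 and 0.30, so values of members there have to be read against that shift.

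Between fractions, *Atxn2l* in neurons was at 2.16 to 14.3 CPM against 10.2 to 14.8 CPM in astrocytes and 9.90 to 14.0 CPM in microglia. The log2 fold change was -0.72 against astrocytes (SE 0.273, adjusted *p* = 0.0292) and -0.77 against microglia (SE 0.273, adjusted *p* = 0.0207), past the adjusted *p* only, while the median of all genes was -0.27 and -0.15. The highest neuronal value, 14.3 CPM, was that of WT replicate 2, the library with high *Mbp*. Without it, the remaining 5 lay at 2.16 to 10.6 CPM and the fold changes were -1.34 (adjusted *p* = 0.000861) and -1.39 (adjusted *p* = 0.000551), both called. Other settings ended the pass. Without WT replicate 1, WT replicate 3 or KIN replicate 2 of the neurons the adjusted *p* was 0.166, 0.0877 and 0.0795 against astrocytes and 0.132, 0.0674 and 0.0606 against microglia, and with the WT libraries alone 0.228 and 0.278. Against astrocytes it was also 0.0625 without KIN replicate 3 of the neurons, 0.058 without WT replicate 1 and 0.0816 without KIN replicate 1 of the astrocytes, and against microglia 0.0583 without WT replicate 1 of the microglia. *Atxn2* at 3.24 to 10.2 CPM in neurons had -0.66 against astrocytes (SE 0.281, adjusted *p* = 0.057) and -0.39 against microglia (SE 0.29, adjusted *p* = 0.32), and its highest neuronal value of 10.2 CPM was from the same library. By the adjusted *p* alone, 2 of 10 members, *Atxn2l* and *Pabpc1*, passed in each neuronal contrast, where 35.3% (against astrocytes) and 32.2% (against microglia) of all genes did. No member was called between neurons and microglia by edgeR or DESeq2, where 27.5% of all genes were. At an unadjusted *p* of at most 0.05 there were 4 of 10 members, against 41.0% of all genes.

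Levels between genes are compared per kilobase of merged exons, on the CPM scale averaged over the 6 libraries of a fraction. In astrocytes *Atxn2l* led with 2.35 ± 0.382 CPM per kb (SD, n = 6), and all 6 of its libraries lay above the ranges of the other 9 genes. *Lsm12* at 1.25 ± 0.323, *Ddx6* at 0.998 ± 0.15 and *Pabpc1* at 0.866 ± 0.39 CPM per kb followed, and neighbours from *Lsm12* downward overlapped in range. In microglia *Pabpc1* led with 4.92 ± 1.78 CPM per kb, followed by *Atxn2l* with 2.42 ± 0.297 and *Ddx6* with 1.17 ± 0.0938, and the ranges of these 3 did not meet. In neurons *Pabpc1* led with 2.72 ± 0.898, and *Atxn2l* followed with 1.39 ± 0.896 CPM per kb, with overlapping ranges. *Atxn2* ranked ninth of 10 in each fraction, at 0.640, 0.535 and 0.403 CPM per kb, with *Pabpc4* lowest at 0.289, 0.414 and 0.336. The merged exons of *Atxn2* span 15.689 kb, retained introns included, which lowers its value per kb. The study describes a library method directed at the 3′ end of transcripts, for which division by length lowers long genes, so this order holds on the per-kb scale only. Undivided, the astrocyte mean of *Atxn2* was 10.05 CPM, below *Tia1* with 12.8 and *Atxn2l* with 12.0 CPM and above the other 7 genes, so its low rank depends on the division.

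The wider pathway was read from lists of related genes, tested in edgeR within the fits over all genes. An unadjusted *p* of at most 0.05 was reached by the shares of all genes given above. Of 17 poly(A)-binding protein and translation partners none was called in any comparison, with 15 tested in neurons and all 17 elsewhere, while an unadjusted *p* of at most 0.05 was found for 5 in astrocytes, 4 in the compound comparison, 1 in microglia and 0 in neurons. Of 24 further stress granule genes none was called either. Of these, 24 were tested in astrocytes and 23 in microglia, each with 3 at that unadjusted level, 24 in the compound comparison with 4, and 20 in neurons with 0. *Ybx1*, a cold-shock domain protein, passed the adjusted *p* alone in the compound comparison at 0.70 (SE 0.197, adjusted *p* = 0.0282), as 1 of 24 where 3.34% of all genes did. Of 28 processing body, decapping and deadenylation genes none was called. At that level there were 3 of 28 tested in astrocytes, 1 of 27 in microglia, 1 of 28 over all fractions and 3 of 16 in neurons, where 5.04% of all genes were. The 9 genes of the eIF2 stress kinases and their pathway gave no call, with 1 of 9 tested at that level in microglia, 1 of 9 over all fractions and 0 of 9 in astrocytes, and only 3 were tested in neurons, with 0 at that level. Median log2 fold changes of these 4 lists were 0.10, 0.19, 0.04 and 0.30 in astrocytes and 0.05, 0.11, 0.09 and -0.34 in microglia, where the medians over all genes were -0.01 and 0.00.

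Among the LSm family, whose rings act in decapping and splicing, 7 of 10 were tested in astrocytes and 1, *Lsm4*, was called higher, where 8.85% of all genes were called in either direction. It was at 1.76, 3.57 and 3.76 CPM in WT and at 5.18, 9.21 and 8.04 CPM in KIN without overlap, with a log2 fold change of 1.21 (SE 0.356, adjusted *p* = 0.0178 in edgeR). The call was lost with DESeq2 (1.25, adjusted *p* = 0.108), without WT replicate 1 (0.94, adjusted *p* = 0.14), without KIN replicate 2 (1.05, adjusted *p* = 0.0923) and without KIN replicate 3 (1.13, adjusted *p* = 0.0941). In microglia *Lsm4* was at 5.64, 4.45 and 4.24 CPM in WT and at 3.57, 3.22 and 2.78 CPM in KIN, apart in the opposite direction but not past the test (-0.60, SE 0.372, adjusted *p* = 0.581), and the compound value was 0.35 (SE 0.255, adjusted *p* = 0.549). Among 9 RNA-binding proteins linked to motor neuron disease, *Smn1*, whose protein assembles spliceosomal particles, was called higher in the compound comparison at 1.58 (SE 0.467, adjusted *p* = 0.04 in edgeR), as 1 of 9 where 2.05% of all genes were called. This *p* counts the fractions of a brain as independent and may be too low. The levels of *Smn1* were low. WT and KIN libraries were at 0.353 to 0.649 and 1.54 to 3.17 CPM in astrocytes, at 0.297 to 0.990 and 0.716 to 1.59 CPM in microglia, and at 0 to 1.33 and 1.99 to 4.86 CPM in neurons. They overlapped in microglia, the WT values all lay under the level of 3 counts, and the adjusted *p* was above 0.05 in 13 of 25 other settings.

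The genes whose pattern over the 18 libraries was most like that of *Atxn2* were sought among 4997 genes with a mean of at least 10 counts, by Pearson's r of log2 CPM. They were *Sik3* (r = 0.881), *Pacsin1* (0.853), *Map4* (0.819), *Ngef* (0.816) and *Zdhhc14* (0.811). Like *Atxn2* they were highest in astrocytes and lowest in neurons, for example *Sik3* at 10.8, 4.02 and 2.63 CPM in astrocytes, microglia and neurons. Among members, *Atxn2l* had r = 0.717 and *Pabpc1* r = -0.27. These are descriptions over libraries that share fraction, depth and brain.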

How the data were processed

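Libraries were made by the company GenXPro from rRNA-depleted, enzymatically polyadenylated total RNA with unique molecular identifiers. Per the labels and the study's methods, the authors trimmed reads with Cutadapt 4.6, mapped them with Bowtie2 2.4.4 in steps to mm39 references and counted them without strand using HTSeq 2.0.2. The deposited counts are whole numbers per Ensembl transcript without normalization. Another 36 columns of TPM and otherwise scaled per-sample values and the authors' fold changes and *p*-values for 4 comparisons were not used. Without strand, reads of antisense partners cannot be told apart.

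Counts were summed by symbol (35823 symbols, 137 entries without one kept apart) and scaled with TMM. Genes reaching 5 reads in 2 or more of the libraries in a fit were tested with the quasi-likelihood test of edgeR 4.0.16 (R 4.3.3), with Benjamini-Hochberg adjustment over all genes. The fit of a fraction used its 6 libraries alone. The compound fit took all 18 with fraction as covariate, and fraction contrasts and interactions used all 18 with 6 group means. Neither of these fits has a term for the brain, so both count the fractions of a brain as independent. Printed CPM use the 18-library scale, while fold changes within a fraction use that fraction's own, and the same members were without overlap on both. Total counts were 761481 to 3296398 per library, so 3 counts were 0.863 to 3.99 CPM. Nothing in the labels ties same-numbered libraries to 1 mouse or litter, so the main tests do not use the study's pairs or the sex. The *p*-values measure the spread between these libraries. The scripts were tested on simulated data with 200 changed genes. The members and lists were chosen with earlier results of these data known. Named were all 10 members, *Atxn2* transcripts past the filter, the called genes of each list (at most 3 a direction) and the 5 genes most like *Atxn2*. *Ybx1* and the splits by transcript type were added after their values were seen. Alternatives were DESeq2 1.42.0, other scalings and filters, the adjusted *p* alone, single fits of all or fewer libraries, a replicate block and leaving out each library.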

Additional observations from a re-analysis of the deposited data

Results flagged for a closer look

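*Lsm12* in microglia had 1 library far from the others, KIN replicate 2 at 4.66 CPM against 0.99 to 2.08 CPM in the other 5, a gap of 0.703 of the whole range where 0.625 is the 95% limit for 6 values. Chance alone gives about 1 such case in 20, and 30 sets of 6 libraries were examined. *G3bp1* was higher in all KIN than in all WT astrocytes and lower in all KIN than in all WT microglia, and the difference between both effects was -1.03 on the log2 scale (SE 0.504, adjusted *p* = 0.419 in the interaction test of edgeR), so it did not pass the test.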

How the results depend on the processing

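The call of *G3bp2* in KIN astrocytes, 1 member, went to 0 with DESeq2 (log2 fold change -1.25) and ranged from 0 to 1 with single libraries left out (fold change -1.55 to -0.86). By the adjusted *p* alone, 1 member passed in microglia and 1 in the compound comparison (*Pabpc1*), 2 in neurons against astrocytes and 2 in neurons against microglia. With single libraries left out, neurons against astrocytes gave 1 to 2 members and neurons against microglia 0 to 1, namely *Atxn2l* without WT replicate 2 and *Tardbp* without KIN replicate 3 of the neurons (-1.14, adjusted *p* = 0.012). The adjusted *p* of *Atxn2l* reached 0.228 and 0.278 in these contrasts. *Pabpc1* kept its calls between astrocytes and microglia (-2.76 to -2.18) and between neurons and astrocytes (1.39 to 1.92) in every setting, while for KIN against WT its adjusted *p* spanned 0.0209 to 0.219 in microglia and 0.00196 to 0.0575 over all fractions. Of 2103 recomputed values of members that were not called, 128 changed sign. The replicate block gave 1 member in astrocytes and 0 in microglia, neurons and the compound comparison, as without it, but *Smn1* lost its call (1.59) and *Pabpc1* in microglia its pass of the adjusted *p* (0.92, adjusted *p* = 0.0616). Same-numbered WT and KIN libraries correlated at -0.127 to 0.0967 in their deviations from the group mean. With 3 libraries a group this cannot decide whether the numbers mark littermate pairs. Between WT astrocytes and WT microglia, same-numbered libraries correlated at 0.0825, 0.254 and 0.158, and differently numbered ones at -0.203 to 0.0981. Counts over all genes moved more. In astrocytes 1040 genes were called, 416 with DESeq2 and 572 to 1528 with a library left out. In microglia 165 were called, 48 with DESeq2, 276 without a filter, 95 at a mean of 10 counts and 35 to 452 with a library left out. In neurons 1 was called, and 0 to 28 in other settings. In the compound comparison 278 were called, 133 at a mean of 10 counts and 461 with fractions summed. Between fractions 4496, 4170 and 3729 were called, and 1782, 1855 and 1809 at a mean of 10 counts. The effect in neurons minus astrocytes had 81 genes higher and 22 lower, and 41 and 26 with DESeq2 size factors, which moved the median over all genes from 0.29 to 0.13. Among transcripts 1300 were called in astrocytes and 358 with DESeq2, and 130 in microglia and 41 with DESeq2. Low counts in the neuronal libraries leave the wide intervals given above.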
